A study of Mus musculus with 2 samples.

Results

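The 5 genomic windows described here lie around genes of the myeloid lineage, and their open sites were compared in DNase-seq peak lists of RAW264 cells with and without the osteoclast-inducing cytokine RANKL. The windows were fixed by position on mm9: Spi1 on chromosome 2 from 90.88 to 91.00 Mb, Csf1r on chromosome 18 from 61.21 to 61.34 Mb, Cebpa on chromosome 7 from 35.85 to 35.96 Mb, Cebpb on chromosome 2 from 167.46 to 167.57 Mb, and Runx1 on chromosome 16 from 92.55 to 92.88 Mb. Every peak that overlapped a window by at least 1 bp was taken. This gave 13 of 16447 peaks with RANKL and 25 of 13492 peaks without RANKL, 38 of 29939 in all.

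Cells with RANKL received the GST-tagged cytokine at 234 ng/ml for 24 hours, and cells without RANKL received none. Both came from the same line at passages 3 to 7, and RAW264 is a mouse macrophage-like tumour line, which stands in for osteoclast precursors as a transformed line and not as primary cells. Nuclei were digested with DNase I at 2 U/mL for 5 minutes at 37 °C, and the fragments released from open chromatin were sequenced. Each condition had 1 library, so no value below has a replicate error, no test across replicates was possible and differences describe these libraries. Read depth is unknown.

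PU.1, the product of Spi1, is an ETS-family factor that macrophages, B cells and osteoclasts all need, and it acts in myeloid cells together with the leucine-zipper factors C/EBP-alpha (Cebpa) and C/EBP-beta (Cebpb) and the runt-domain factor RUNX1 (Runx1). These factors act on one another's genes and on Csf1r, the receptor for the growth factor M-CSF, on which osteoclast precursors depend for survival and proliferation. Spi1 is known for an upstream regulatory element, Csf1r for an intronic enhancer, and Runx1 for a pair of promoters far apart. None of these elements could be placed, because no mm9 annotation was used here, and for the same reason the identity of the cells was not checked against marker genes. In the mouse gene order of the GRCm38 table, the named protein-coding neighbours were Slc39a13 and Mybpc3 for Spi1, Pdgfrb and Hmgxb3 for Csf1r, Cebpg and Slc7a10 for Cebpa, Tmem189 and Ptpn1 for Cebpb, and Clic6 and Setd4 for Runx1. A peak in a window is therefore a site near the named gene, not one assigned to it.

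Since the sequence under the peaks was not used here, the stretches just upstream of the annotated starts are shown to give promoter letters of genes that the windows are named for. RefSeq's promoter table held 3 of the 5 genes, with 1 start each for Cebpa and Cebpb and 2 starts for Runx1, listed as start 1 and start 2. Each line gives 250 bases 5′ to 3′, ending at the base before the start, and capitals mark GGAA on either strand (TTCC on the printed strand), the core of the motif that PU.1 and other ETS factors bind. The positions are on GRCm38.p6 and cannot be set against the mm9 peak positions: Cebpa at chr7:35119043-35119292 (plus strand), Cebpb at chr2:167688665-167688914 (plus strand), and Runx1 at chr16:92826075-92826324 and chr16:92697330-92697579 (both minus strand).
Cebpa: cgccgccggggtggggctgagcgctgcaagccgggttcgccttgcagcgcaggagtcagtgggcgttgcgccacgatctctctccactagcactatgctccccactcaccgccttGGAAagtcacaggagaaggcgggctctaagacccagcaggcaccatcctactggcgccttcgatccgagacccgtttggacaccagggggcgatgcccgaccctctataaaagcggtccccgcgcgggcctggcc
Cebpb: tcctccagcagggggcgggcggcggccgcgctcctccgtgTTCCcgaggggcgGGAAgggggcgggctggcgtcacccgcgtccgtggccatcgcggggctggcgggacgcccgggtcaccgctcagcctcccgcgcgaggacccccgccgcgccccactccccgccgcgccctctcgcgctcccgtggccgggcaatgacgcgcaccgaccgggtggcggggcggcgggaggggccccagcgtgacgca
Runx1 start 1: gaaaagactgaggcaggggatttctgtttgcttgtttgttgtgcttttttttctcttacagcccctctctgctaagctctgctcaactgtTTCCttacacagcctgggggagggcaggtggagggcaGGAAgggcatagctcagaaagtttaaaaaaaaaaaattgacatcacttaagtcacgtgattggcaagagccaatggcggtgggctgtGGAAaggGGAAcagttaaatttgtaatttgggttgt
Runx1 start 2: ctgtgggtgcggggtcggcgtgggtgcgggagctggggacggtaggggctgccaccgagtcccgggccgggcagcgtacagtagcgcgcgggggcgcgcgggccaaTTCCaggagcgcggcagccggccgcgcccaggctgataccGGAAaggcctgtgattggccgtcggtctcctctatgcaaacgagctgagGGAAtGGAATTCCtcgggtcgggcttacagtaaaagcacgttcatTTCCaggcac
GGAA occurred at 1 place upstream of Cebpa, 2 of Cebpb, 4 of Runx1 start 1 and 6 of Runx1 start 2. It is a common word, present in 93.4% of the 32851 stretches of the table. The longer PU.1 word GAGGAAGT (which contains GGAA, 2.44% of all stretches), the C/EBP words TTGCGCAA (0.164%) and TTNCNNAA (of which TTGCGCAA is one form, 36.8%), the RUNX word TGTGGT (14.0%) and the AP-1 word TGANTCA (6.75%), each searched on both strands, were in none of the 4 stretches. The base composition differed widely, at 81.6% G and C for Cebpb, 67.6% for Runx1 start 2, 66.4% for Cebpa and 45.6% for Runx1 start 1, against a median of 52.4% in the table.

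The first question was which hypersensitive sites near these genes were called in both states. Shared peaks are those with at least 1 bp in common with any peak of the opposite list. With RANKL, 12 of 13 peaks (92.3%, 95% Wilson interval 66.7 to 98.6%) lay on a peak without RANKL, against 65.7% of the whole list, and 1 peak was RANKL-only, where the whole list had 34.3%. Without RANKL, 11 of 25 peaks (44.0%, interval 26.7 to 62.9%) carried a RANKL peak, against 60.7% of the whole list, and 14 (56.0%) carried none, against 39.3%. The whole-list share lies within the interval for the peaks without RANKL and just below the interval for the peaks with RANKL. These intervals cover counting error only and treat each peak as independent, although neighbouring peaks share their surroundings.

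The windows held 16.25 peaks per Mb with RANKL and 31.25 per Mb without RANKL, against 6.41 and 5.27 per Mb over the span that each whole list covered. At Spi1, Csf1r, Cebpa and Cebpb, peaks of both lists were denser than over the whole list, whereas the Runx1 window held 6.06 per Mb with RANKL, close to the whole list, and 24.2 per Mb without RANKL. This sets the windows against the whole lists and not against their surroundings. Within 1 Mb on each side, 29 peaks with RANKL and 31 without RANKL lay around Spi1, and 36 and 45 around Cebpb. In the same order, there were 21 and 31 around Csf1r, 17 and 11 around Cebpa, and 20 and 21 around Runx1. The ratio of peak counts, with over without RANKL, was 0.52 in the windows together (95% exact conditional Poisson interval 0.244 to 1.06) and 1.22 over the whole lists (interval 1.19 to 1.25). It was 0.25 at Runx1, 0.50 at Spi1 and at Cebpa, 0.60 at Cebpb and 1.00 at Csf1r. Each window holds few peaks, and the interval of its ratio was wide, from 0.0259 to 1.25 at Runx1 and from 0.186 to 5.37 at Csf1r. Within 1 Mb on each side of the windows, the windows themselves left out, the ratio ran from 0.677 around Csf1r to 1.55 around Cebpa, and in each of the 5 windows the interval covered the ratio of its surroundings.

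**Figure D1:**
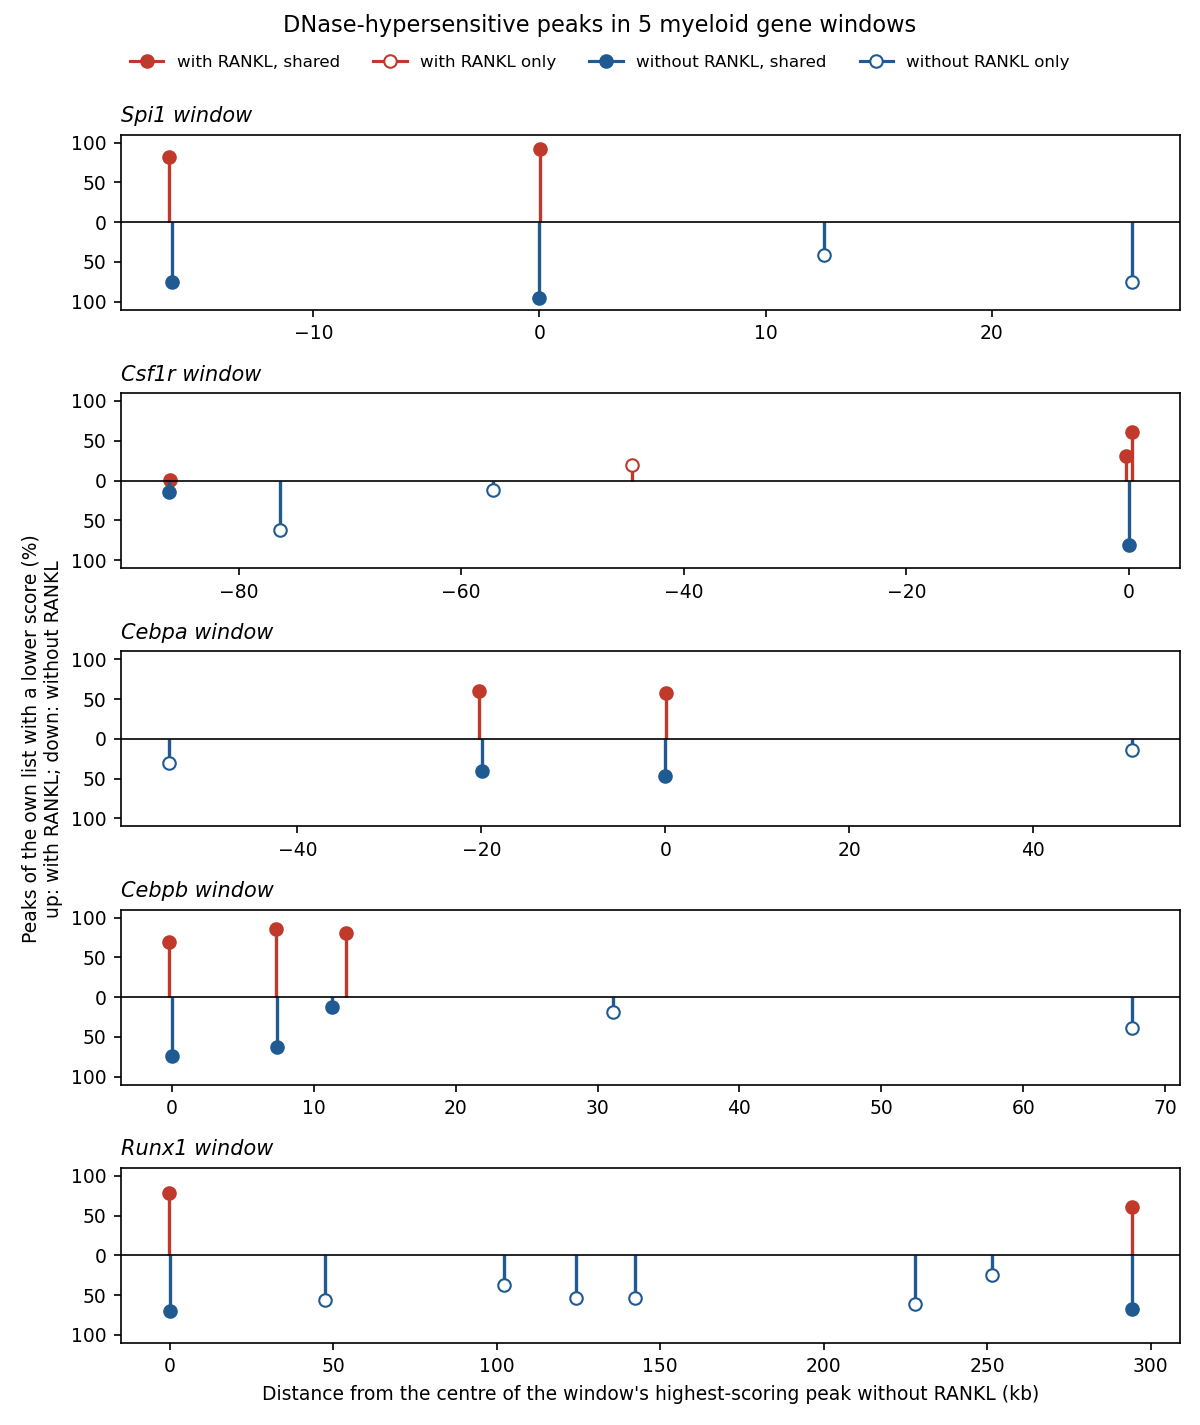
Peaks in the 5 windows, 1 panel per window. The x axis gives the distance in kb from the centre of the window's highest-scoring peak without RANKL, lines stand at peak centres (widths are not drawn), and line length gives the percent of the peak's own list with a lower score, upwards with RANKL and downwards without RANKL. Filled symbols are shared peaks and open symbols peaks of one list only; the 6 inner peaks of the Runx1 window are all open.

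At Spi1, the strongest open site of all 5 windows was present in both states. With RANKL it spanned 90910474 to 90910886 (413 bp, score 236, rank 1321 of its list), and without RANKL 90909486 to 90911854 (2369 bp, score 265, rank 686). Ranks count from the highest score in the peak's own list, and since the score depends on depth and calling settings, no change is read from ranks in different lists. It was the only site of the 5 windows in the highest 10% of either list, and it reached that part in both. The centres of its peaks in the lists lay 10 bp apart. A second shared site had its centre at lower coordinates, 16.4 kb away with RANKL and 16.3 kb without RANKL, with a RANKL peak at 90894102 to 90894510 (score 153, rank 2857) inside a peak without RANKL at 90893642 to 90895167 (score 152.66, rank 3415).

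On the other side of the strongest Spi1 site, both remaining peaks were called without RANKL only. The stronger, at 90935939 to 90937748, had a score of 154 (rank 3354), close to that of the shared site at 90893642, and the gap to the closest RANKL peak was 25.1 kb. Each list was also divided by score into 10 equal parts, here called deciles, with decile 1 the highest, and in decile 3 of its list, where this peak stood, 85.2% of all peaks were shared. The other, at 90920789 to 90925742, was 4954 bp wide, the 83rd widest of 13492 peaks, with a score of 87.9. From the end of the strongest site's RANKL peak, 135.7 kb passed without a RANKL peak, and this stretch held 4 peaks without RANKL, 2 of them past the end of the window. Of all 16425 stretches between neighbouring RANKL peaks, 122 (0.743%) held 4 or more peaks without RANKL. Among the 3664 at least as long, 105 did. The stretch was examined after the values were seen, so these counts test nothing.

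The 3 lowest-scoring RANKL peaks of the 5 windows all lay at Csf1r. Its 4 RANKL peaks had scores of 50.1, 55.0, 59.6 and 88.0, and 1 of the 4 stood in the upper 50% of the list. Its 4 peaks without RANKL had scores of 60.9, 124, 58.7 and 173 in order of position. The highest-scoring site lay near the far edge of the window, where 2 RANKL peaks, at 61336439 to 61336705 and 61336941 to 61337186, sat inside 1 peak without RANKL at 61335749 to 61337863 (score 173, rank 2596). No other broad peak of the 5 windows held more than 1 RANKL peak. This made 1 of 11 shared broad peaks in the windows, against 2255 of 8186 over the whole lists. The RANKL peaks there ranked 11422 and 6387 of 16447. Over the whole list, 30.5% of the shared peaks in decile 2, where this broad peak stood, had their best RANKL partner in decile 4 or lower, as it did. The shared site with the lowest RANKL score had its RANKL peak at 61250589 to 61250744 (score 50.1, rank 16354). That score lay just above the lowest of the RANKL list, 50.0. The peak without RANKL at this site was at 61249678 to 61251449 (score 60.9, rank 11515). In the list without RANKL, a shared Cebpb peak scored lower, at 58.7.

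Between these shared sites, the Csf1r window held a pair of very wide peaks without RANKL that carried no RANKL peak. The first, at 61257985 to 61262992, was 5008 bp wide, the widest of the 5 windows and the 79th widest of its list, with a score of 124 (rank 5023), and the nearest RANKL peak was 7.24 kb away. The second, at 61277651 to 61281654, was 4004 bp wide with a score of 58.7. The window also held the one RANKL-only peak of the 5 windows, at 61292030 to 61292258, which was 229 bp wide and lay 10.4 kb from the nearest peak without RANKL. Its score of 55.0 placed it in decile 9 of the RANKL list, where 36.7% of peaks were shared.

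The Cebpa window held modest sites only, and the centres of the pair called in both states lay 20.3 kb apart with RANKL and 20.0 kb apart without RANKL. With RANKL these were 35883450 to 35883651 (score 85.7, rank 6653) and 35903762 to 35904014 (score 83.0, rank 6941). Without RANKL they were 35883173 to 35884613 (score 88.3, rank 7946) and 35902938 to 35904758 (score 96.9, rank 7129). Both stood in the upper 50% of the list with RANKL, and neither did without RANKL. The remaining peaks, both without RANKL only, were the narrowest of that list in the 5 windows, at 1299 bp (score 76.6) and 1257 bp (score 60.8). The wider of them, 35849259 to 35850557, crossed the edge of the window and reached 742 bp past it. The other, 35953920 to 35955176, lay 49.9 kb from any RANKL peak.

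Cebpb had a compact set of 3 shared sites, among them the highest-scoring RANKL peak outside the Spi1 window. With RANKL, the 3 peaks lay within 12.9 kb and scored 105 at 167474647 to 167475117, 170 at 167482060 to 167482772 and 145 at 167487162 to 167487574, and all were in the upper 50% of the list. The peaks without RANKL under them scored 150, 123 and 58.7, at 167473976 to 167476152, 167481488 to 167483433 and 167484664 to 167488067. The order of the sites thus differed between the lists: of the 3 shared sites, the first scored lowest with RANKL and highest without RANKL. The 713 bp RANKL peak at the second site was wider than 96.1% of the RANKL list. The third site combined a RANKL peak of rank 3124 of 16447 with a broad peak of rank 11889 of 13492. Of the 418 shared peaks in decile 9, where that broad peak stood, 38 (9.09%) had a RANKL partner in decile 1 or 2, as it did. The broad peak was 3404 bp wide, and the RANKL peak lay 1002.5 bp from its centre.

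Further along the Cebpb window, 2 peaks without RANKL had no partner, at 167505149 to 167507178 (score 63.9) and 167541683 to 167543738 (score 85.8). Both were in the lower 50% of their list, and the nearest RANKL peaks were 17.6 and 34.9 kb away.

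Runx1 had the largest share of sites called without RANKL only. With RANKL the window of 330 kb held 2 peaks, 92573533 to 92573779 (score 132, rank 3567) and 92867724 to 92867989 (score 86.7, rank 6531), and without RANKL it held 8. The outermost of the 8, at 92572883 to 92574569 (score 139, rank 4101) and 92866836 to 92868868 (score 134, rank 4405), were the shared ones, and they were also the highest-scoring. Between them, 6 peaks in a row had no RANKL peak on them. In order of position their scores were 112, 83.3, 108, 108, 120 and 70.1, and they lay 40.5 to 141.5 kb from the nearest RANKL peak. The strongest of the 6 was at 92800586 to 92802844 (2259 bp, rank 5271). The widest, at 92823117 to 92827174, measured 4058 bp, and the next widest, at 92696592 to 92699340, measured 2749 bp.

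Of the 6 inner Runx1 peaks, 4 stood in the upper 50% of their list by score. Over the whole list, 63.3% of peaks in decile 5, which held 3 of these 4, were shared, and 75.1% in decile 4, which held the other. The 293.9 kb between the outer RANKL peaks was thus free of RANKL peaks but not of open sites without RANKL. Among the 16425 stretches between neighbouring RANKL peaks, 16 (0.0974%) held 6 or more peaks without RANKL, and the highest number was 8. Of the 1784 stretches at least as long, 10 held 6 or more, and the median was 0. Counting only peaks without RANKL in the upper 50% of their list, 1 stretch held 4 or more, and it was this one. The stretch was looked at because of the values in the window, so these counts place it among the others and test nothing. The interval of the Runx1 ratio, given with the other windows, covers the ratios of its surroundings: within 1 Mb on each side there were 20 peaks with RANKL and 21 without RANKL, within 5 Mb 65 and 71, and on chromosome 16 as a whole 530 and 488. Sites that closed and sites that remained open below the calling threshold of the RANKL list cannot be told apart.

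**Figure D2:**
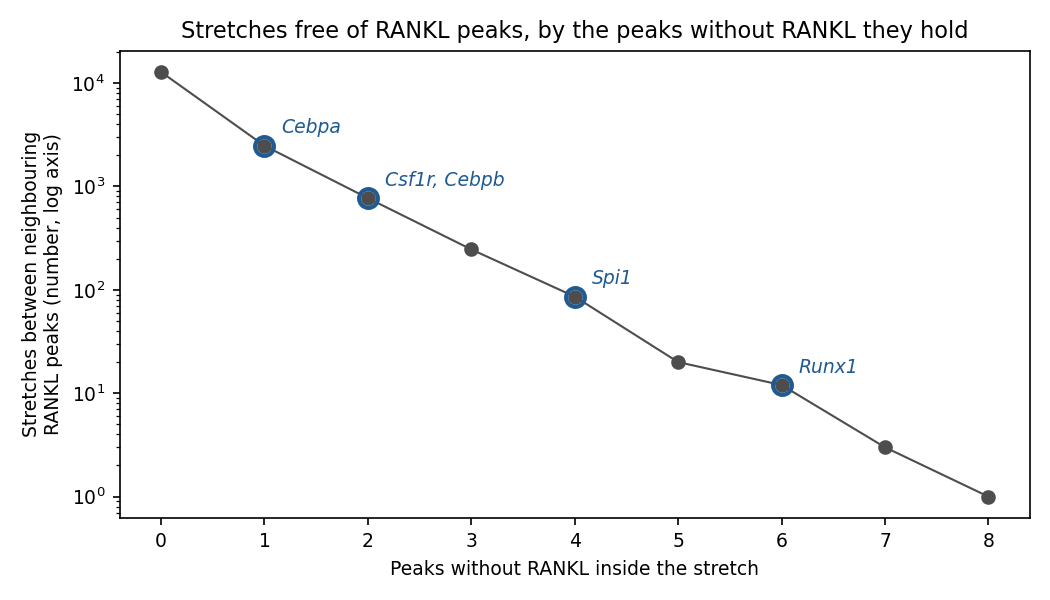
Number of stretches between neighbouring RANKL peaks on the same chromosome (log axis) by how many peaks without RANKL lie wholly inside them, over all 16425 stretches. Circles mark, for each gene, the stretch that held the most unshared peaks of its window; the stretch at Runx1 held 6, that at Spi1 4, those at Csf1r and Cebpb 2 each, and that at Cebpa 1.

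Within the 11 shared sites, the 12 RANKL peaks lay wholly inside the broad peaks, as 99.6% of all overlapping pairs did. The broad peak was 2.73 to 11.4 times as wide as the RANKL peak, with a median of 7.17, against 6.70 over all pairs. Centres lay 4.5 bp apart at the upper Runx1 site and 1002.5 bp apart at the third Cebpb site, the extremes of the 12 pairs, with a median of 101 bp against 202 bp over all pairs. The lists differ in width throughout, so the narrower RANKL peaks here repeat a property of the whole lists.

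**Figure D3:**
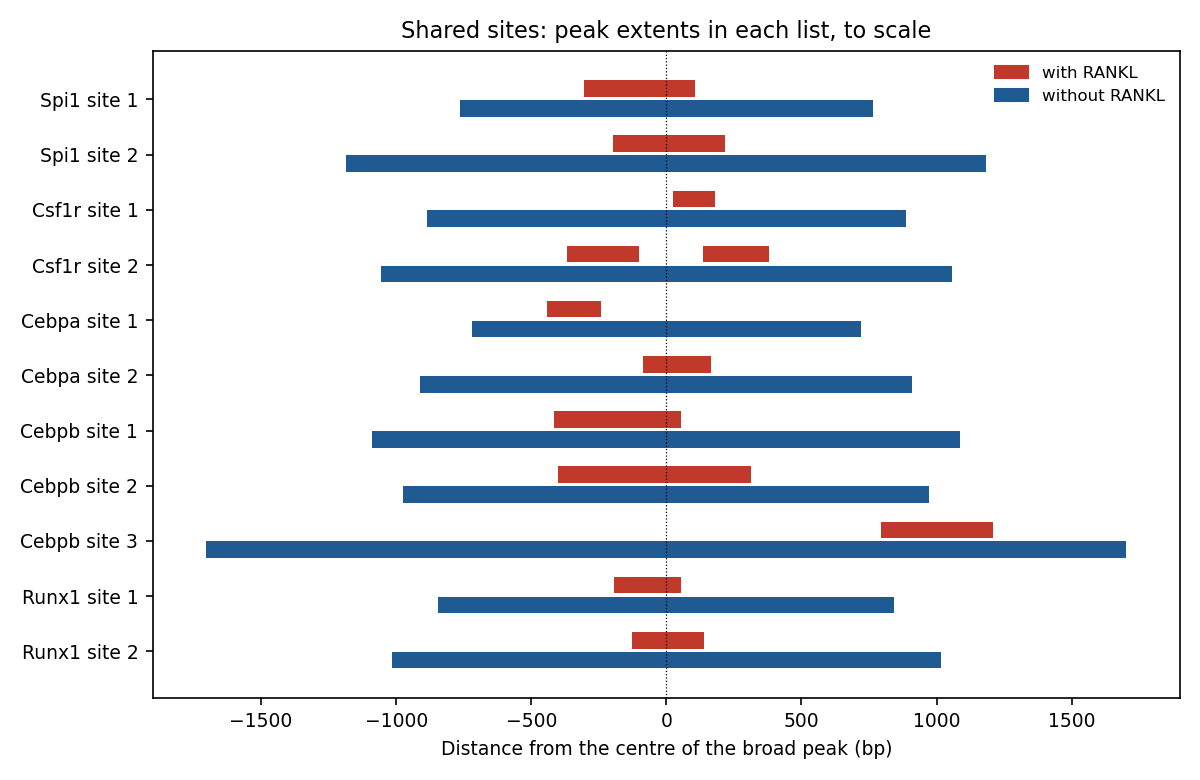
Extents of the peaks at the 11 shared sites, to scale, against the distance in bp from the centre of the peak without RANKL. The upper bar of each pair is the RANKL peak and the lower bar the peak without RANKL; sites are numbered by position within a window. The second Csf1r site holds 2 RANKL peaks, and at the third Cebpb site the RANKL peak lies toward one end.

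Score and width separated the shared from the unshared peaks of the windows only in part. With RANKL, the 12 shared peaks had a median score of 96.4 (range 50.1 to 236), against 91.9 for all shared peaks of that list. Without RANKL, the 11 shared peaks had a median score of 134 (range 58.7 to 265) and the 14 unshared ones a median of 86.8 (range 58.7 to 154). The medians over that whole list were 132 for shared and 73.2 for unshared peaks. Of the peaks in the upper 50% of their list, 10 of 10 with RANKL were shared (interval 72.2 to 100%), against 85.4% of all such peaks (0 unshared, against 14.6%). The whole-list share lies within that interval. Without RANKL, 7 of 13 such peaks were shared (53.8%, interval 29.1 to 76.8%), against 83.1%, which lies above the interval. The 6 unshared ones, where the whole list had 16.9%, were 4 at Runx1, 1 at Spi1 and 1 at Csf1r.

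Unshared peaks without RANKL were also wide here. Their median width was 2043 bp, against 1522 bp for all unshared peaks of the list, while the shared ones measured 1946 bp, against 1876 bp. Over 4000 bp, a threshold set after the widths were seen, the windows held 4 peaks, or 16% of their peaks against 1.81% of the list: 1 at Spi1, 2 at Csf1r and 1 at Runx1. None of these 4 carried a RANKL peak, whereas 199 of the 244 peaks of that width in the whole list (81.6%) had one. Of the 4, 2 lay close to the threshold, at 4004 and 4058 bp, and the next widest peak of the windows, the 3404 bp peak at Cebpb, was shared. Over 3000 bp, 1 of 5 peaks in the windows was shared, against 81.0% in the list, over 3500 bp 0 of 4, against 81.6%, and over 4500 bp 0 of 2, against 83.6%. Of the 4 over 4000 bp, 3 scored below the median of their list, and among the 94 such wide but low-scoring peaks of the whole list 67.0% were shared.

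**Figure D4:**
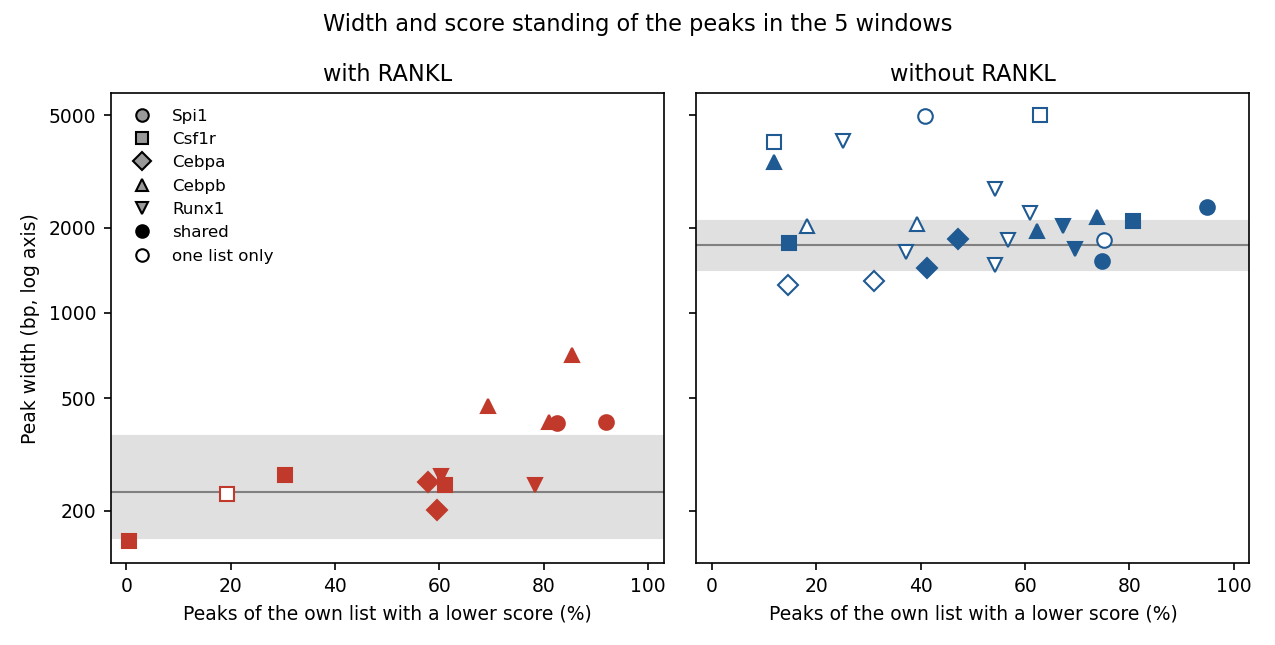
Width of each peak in the windows (bp, log axis) against the percent of its own list with a lower score, with RANKL on the left and without RANKL on the right. Symbols give the window, filled symbols are shared peaks, and the line and grey band give the median and quartiles of all widths in the list. The 4 peaks over 4000 bp on the right are all open symbols.

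Membership depended on the edges of the windows: with each window widened by 25 kb on both sides there were 16 peaks with RANKL and 30 without RANKL, and with each narrowed by 15 kb there were 9 and 21. Just inside, the highest-scoring Csf1r site lay near the upper edge and the 1299 bp Cebpa peak crossed the lower one. Just outside, the nearest sites lay below the Cebpb window, with a RANKL peak at 167457766 to 167458153 (score 100.13) and a peak without RANKL at 167456858 to 167458780 (score 99.7), 1.85 and 1.22 kb from the edge. Above the same window, a RANKL peak of score 56.5 and a peak without RANKL of score 199 lay 8.67 and 6.85 kb from the edge. Below the Cebpa window, the nearest were a RANKL peak of score 72.7 and a peak without RANKL of score 128, at 7.81 and 6.98 kb. At Spi1, Csf1r and Runx1 no peak of either list lay within 20 kb of an edge on the outside.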

How the data were processed

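DNase-seq was done on 1 RAW264 library with RANKL and 1 without RANKL. For each library the authors deposited a list of peak positions, each with a score. The build named is mm9 and the tools named are Bowtie2 2.0.0 and MACS2, per the submitters' processing notes. How the score is defined, the threshold for calling and any control library were not given in the sources used here, so the score ranked peaks within a list only. Depth is unknown.

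Positions are 1-based. Overlaps were computed with bedtools 2.31.1, and ranks, shares, Wilson and exact conditional Poisson intervals with scipy 1.17.1, pandas 2.3.3 and numpy 2.4.6 under Python 3.11.15. Plots used matplotlib 3.10.9. Tied scores share the best rank. For deciles and the upper 50%, a list was sorted by score and divided evenly. The overlap and distance code was tested on simulated peaks with partial overlaps and near misses. Upstream sequences came from RefSeq's GRCm38.p6 table.

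The windows, genes and words searched were chosen with earlier results of these data known. The rule for named sites took, per window and list, the highest-scoring peak with its partner, all peaks in the highest 10%, and the highest-scoring peak of one list only. Other peaks were added because the windows hold few. Related genes and cell type markers, which need an mm9 annotation, were not analysed here. Stretches free of RANKL peaks, the width classes and the ranks of partners were examined after the values were seen.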

Additional observations from a re-analysis of the deposited data

How the results depend on the processing

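The alternatives gave 63 values. Counts within a factor of 1.5 of the main count, and shares or medians inside the main interval, made up 51 of them, and 12 moved further. A reciprocal overlap of 50% left 0% shared in both lists (13 peaks with RANKL and 25 without RANKL unshared), which follows from the widths. In the upper 50% of each list by score, 100% of the RANKL peaks were shared (0 unshared), and 6 peaks without RANKL were unshared. With the Csf1r window left out, 100% of the RANKL peaks were shared (0 unshared), and with the Runx1 window left out 8 peaks without RANKL were unshared. Counts of unshared peaks fall when peaks are removed. The shared percentages without RANKL, 53.8% in the upper 50% and 52.9% with the Runx1 window left out, stayed inside the main interval. Windows of 500 bp around the centres left 2 RANKL peaks unshared. Merging peaks closer than 1 kb left 0 broad peaks with 2 or more RANKL peaks, because the pair at Csf1r became 1. Leaving out windows in turn and the 500 bp setting were chosen after seeing the data. Wider or narrower windows and equal numbers of peaks, run for shared and unshared peaks, and ranks on chromosomes 1 to 19 and X, run for the median ranks, gave no value among the 12. No paired analysis was possible because each condition had 1 library. Unknown depth limits every statement on a site missing from a list.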
